A study of Mus musculus with 72 samples.

Results

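The 7 genes described here write, keep and remove methyl groups on cytosine in DNA: Dnmt1, Dnmt3a, Dnmt3b, Uhrf1, Tet1, Tet2 and Tet3. They were taken by symbol. All 7 are rows of the liver table of 22823 genes and all 7 passed the filter on low counts, which left 20249 genes. The table for the suprachiasmatic nucleus (SCN), the small hypothalamic region that keeps the central clock of the body, has 15759 genes and holds 5 of the 7, all of them tested, with no row for Dnmt3b or Uhrf1. The data are RNA-seq read counts of 72 libraries from C57BL/6 mice, 36 per tissue. Mice were bought at 8 to 12 weeks of age, housed singly, and fed at will either a diet free of methionine and choline (MCD) or a control diet matched for energy. After 10 days of light and dark they spent day 11 in constant darkness and were killed at circadian times (CT) 0, 4, 8, 12, 16 or 20. A group, defined by tissue, diet and time, had 3 libraries, 2 labelled male and 1 labelled female, and there were 24 groups; the protocol speaks of males only. The labels give no engineered allele. Constant darkness on the last day was common to both diets.

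DNA methylation is copied at each cell division. Uhrf1 binds DNA in which only the parental strand is methylated and recruits Dnmt1, which methylates the new strand, so both are known as genes of dividing cells. Dnmt3a and Dnmt3b place methyl groups on sites that had none. The TET enzymes oxidise methylated cytosine using oxygen, iron and alpha-ketoglutarate, and the oxidised bases are lost by dilution or cut out by the glycosylase Tdg and base excision repair. The methyl group itself comes from S-adenosylmethionine, which the cell makes from methionine, and choline can feed methyl groups back to homocysteine through betaine.

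Total counts per library ran from 52.6 to 86.7 M (median 64.4 M) in liver and from 23.3 to 79.8 M (median 57.0 M) in SCN. Levels are given as CPM, counts per 1 M counts after TMM scaling, a scaling that assumes that most genes do not change. With TMM the median liver gene differed by 0.02 on the log2 scale between diets, and with scaling to library totals alone by 0.27, so liver directions are relative to the typical gene. At CT08, 2 control columns in each table carry the same name and no usable number, and are called a and b. In liver, control CT08 a stood apart. Its summed level over 22 S phase and cell division genes was 210.7 CPM, against 63.4 to 88.4 CPM in the other 17 control livers and 91.3 to 318 CPM in the 18 MCD livers. Its macrophage, stellate and lymphocyte marker sums were the highest of the controls, and its hepatocyte marker sum was the lowest (79710 CPM). Liver libraries also fell into 2 kinds by the mitochondrial transcript mt-Nd6: 21 libraries at 32.8 to 133 CPM, of which 13 were MCD, and 15 at 380 to 1038 CPM, of which 5 were MCD. The tissues matched their labels: 6 hepatocyte markers summed to 57510 to 124000 CPM in every liver library and, with 4 of the 6 absent from the SCN table, to 2.21 to 27.3 CPM in SCN, and all 7 SCN neuron markers were present in SCN at 1630 to 4212 CPM in sum. In tissue RNA, a change in the number of cells of a type and a change in RNA per cell cannot be told apart. Macrophage markers moved with diet in liver: 6 of 7 tested genes rose, and their summed level ran from 253.9 to 602.3 CPM in control livers and 333.9 to 734.9 CPM in MCD livers. Of the markers of other liver cell types, 3 of 5 of endothelium, 2 of 6 of stellate cells and fibroblasts and 1 of 5 of cholangiocytes also rose. Falls were called for 4 of 6 markers of hepatocytes, 2 of 3 of red cell precursors and 1 of 6 of lymphocytes. Summed hepatocyte markers had a median of 102400 CPM on control and 104000 CPM on MCD. All these counts of markers stand beside 25.3% of all liver genes upward and 21.2% downward. The part of these cell types in the results was not tested.

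All 7 genes have promoter windows in RefSeq (GRCm38.p6), each 250 bases before to 50 bases after an annotated start. The windows were searched on both strands for the E2F site TTTNNCGC, bound by regulators of S phase genes, and for 3 elements of the circadian clock: the E-box CACGTG, the ROR element AGGTCA and the D-box TTATGTAA. Shown are the windows of Uhrf1 and Dnmt1 that hold a match, the genes that moved with S phase genes in liver, and the window of Dnmt3b, the member with the widest daily range on the control diet. Capitals mark matches, and the run in capitals near the start of the Dnmt1 window holds 2 overlapping matches on the opposite strand.
Uhrf1 window 1: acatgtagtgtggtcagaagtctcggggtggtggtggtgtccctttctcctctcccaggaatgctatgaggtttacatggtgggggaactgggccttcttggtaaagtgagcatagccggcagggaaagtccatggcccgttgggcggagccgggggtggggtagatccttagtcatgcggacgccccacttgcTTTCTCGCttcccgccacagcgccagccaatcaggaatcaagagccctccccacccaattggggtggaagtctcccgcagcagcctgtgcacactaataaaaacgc
Uhrf1 window 2: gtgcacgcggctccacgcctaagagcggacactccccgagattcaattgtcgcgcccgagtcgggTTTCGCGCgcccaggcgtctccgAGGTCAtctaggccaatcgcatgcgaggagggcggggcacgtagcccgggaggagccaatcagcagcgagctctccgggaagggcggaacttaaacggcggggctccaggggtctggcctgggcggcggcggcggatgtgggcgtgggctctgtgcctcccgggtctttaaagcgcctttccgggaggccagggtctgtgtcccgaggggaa
Dnmt1 window 3: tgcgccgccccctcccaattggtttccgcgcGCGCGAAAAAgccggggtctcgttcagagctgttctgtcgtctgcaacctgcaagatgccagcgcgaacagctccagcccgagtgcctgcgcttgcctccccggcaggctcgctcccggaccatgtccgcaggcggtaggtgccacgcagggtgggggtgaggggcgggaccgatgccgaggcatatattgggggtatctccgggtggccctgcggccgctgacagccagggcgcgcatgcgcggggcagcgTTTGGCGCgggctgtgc
Dnmt3b: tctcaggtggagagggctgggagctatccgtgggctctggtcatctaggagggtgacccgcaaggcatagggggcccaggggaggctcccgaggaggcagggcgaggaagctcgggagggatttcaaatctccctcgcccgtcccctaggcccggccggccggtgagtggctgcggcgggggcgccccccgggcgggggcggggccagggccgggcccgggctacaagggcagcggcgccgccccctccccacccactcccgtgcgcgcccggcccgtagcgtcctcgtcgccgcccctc
They lie at chr17:56303087-56303386 (plus strand), chr17:56304063-56304362 (plus), chr9:20952574-20952873 (minus) and chr2:153649199-153649498 (plus). The site TTTNNCGC occurs once in each Uhrf1 window, beginning 56 and 185 bases before the start, and at 3 places in the Dnmt1 window. Of 32851 RefSeq windows of this length, 5.17% hold it. Uhrf1 window 2 also holds an AGGTCA, 162 bases before the start, an element found in 16.3% of windows. The Dnmt3b window holds none of the 4 elements, which says only that these letters are not in these 300 bases. CpG pairs, the sites the enzymes act on, numbered 30 in the Dnmt3b window, 33 in that of Dnmt1, 12 and 33 in those of Uhrf1 and 57 in that of Tet2, against a median of 7. Dnmt3a window 3 holds the E-box, found in 7.15% of windows, overlapping an AGGTCA, and the window of Tet1 holds an AGGTCA. The D-box, in 0.938% of windows, was in none of the members' windows.

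In liver, MCD feeding moved 5 of the 7 genes, averaged over the 6 times (edgeR quasi-likelihood test, adjusted p under 0.05). Uhrf1, Dnmt3a and Dnmt1 rose, Dnmt3b and Tet2 fell, and Tet1 and Tet3 did not pass the test. Across all liver genes tested, 46.6% passed in either direction, 25.3% upward and 21.2% downward, so the count of 5 of 7 is read against a tissue in which many genes passed, and nothing particular to the 7 follows from it. The median log2 difference of the 7 was 0.16, beside 0.02 for all genes.

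**Figure D1:**
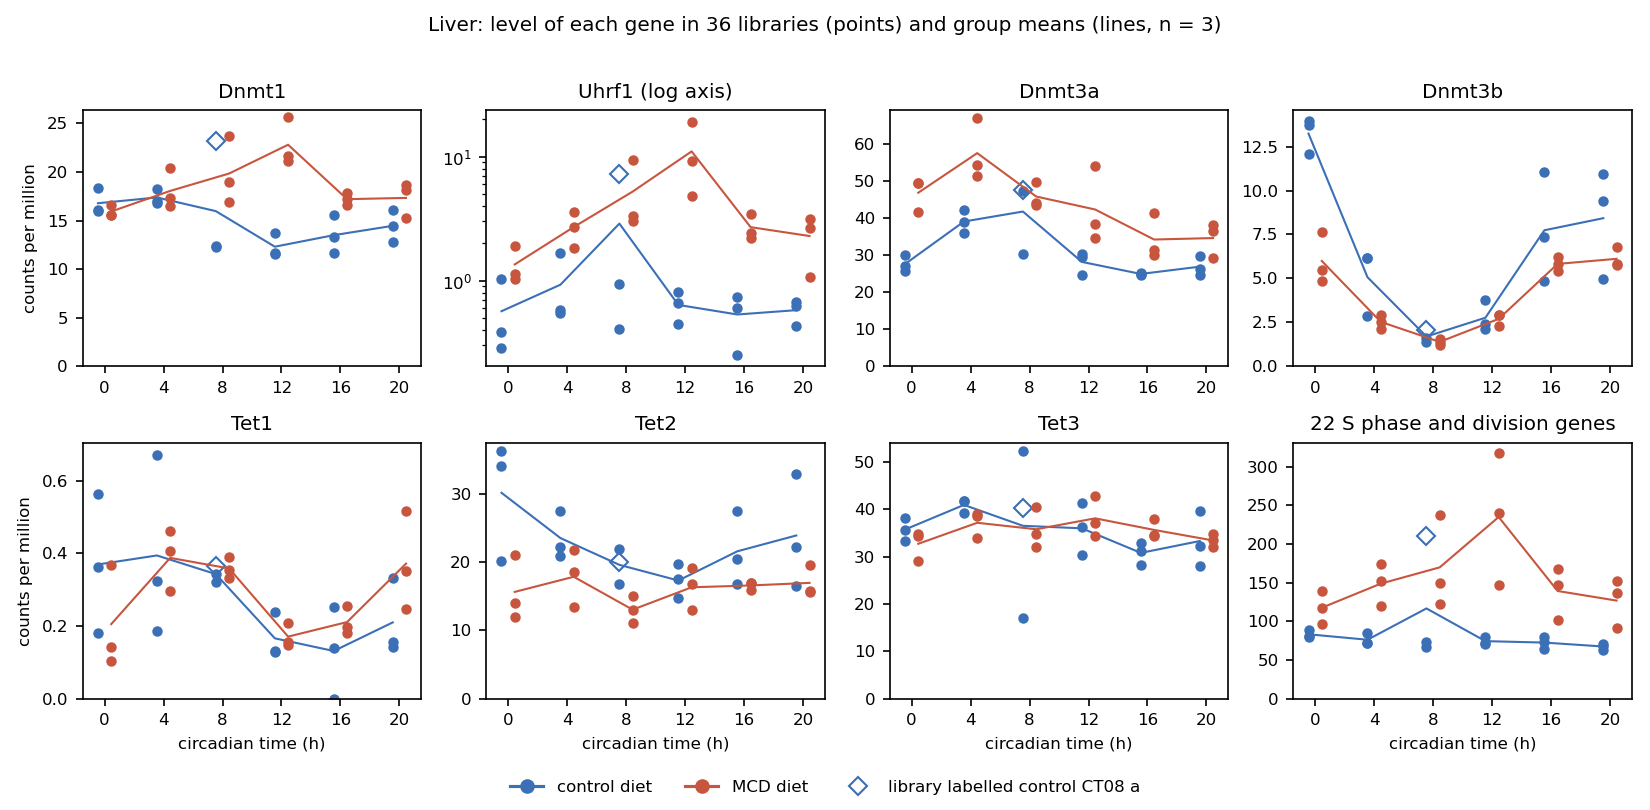
Level in CPM of each of the 7 genes, and of the sum of 22 S phase and division genes, in every liver library (points) by circadian time in hours, with lines through the group means of 3 libraries, control in blue, MCD in red and control CT08 a as an open diamond; the axis is linear from 0 except for Uhrf1, which has a log axis. Uhrf1 lay at 4.79 to 19.0 CPM in the MCD libraries at CT12 against 0.443 to 0.802 CPM in control, and Dnmt3b fell to between 1.40 and 2.06 CPM in the control libraries at CT08.

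Uhrf1 showed the widest diet difference of the 7. Over the 18 control livers its level ran from 0.253 to 7.29 CPM with a median of 0.614 (15 to 740 counts), and over the 18 MCD livers from 1.02 to 19.0 CPM with a median of 2.86 (65 to 1552 counts). The groups overlapped, chiefly through control CT08 a, which held the highest control value; the other 17 control livers ended at 1.65 CPM, still above the lowest MCD livers. Means were 1.02 ± 1.60 CPM on control (SD, n = 18; 0.650 ± 0.335 without control CT08 a, n = 17) and 4.21 ± 4.39 CPM on MCD. The fitted difference was 2.01 ± 0.31 on the log2 scale (SE; 4.02-fold; edgeR adjusted p = 7.61e-06), with MCD higher at 6 of 6 times. Without control CT08 a it was 2.38 (adjusted p = 1.46e-08). Fitted within the kinds of library, it was 1.83 among the 21 of low mt-Nd6 (adjusted p = 0.0166) and 2.83 among the 15 of high mt-Nd6 (adjusted p = 3.70e-04).

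The fitted Uhrf1 difference was widest at CT12, the start of subjective night. There the 3 control livers held 0.660, 0.802 and 0.443 CPM and the 3 MCD livers 4.79, 19.0 and 9.21 CPM, with no overlap. The fitted difference was 4.11 ± 0.81 on the log2 scale (edgeR adjusted p = 1.69e-03), a call lost without the libraries numbered 1 (4.50, adjusted p = 0.0742) or 2 (3.64, adjusted p = 0.143). At CT08 control a, at 7.29 CPM, lay inside the MCD range of 3.01 to 9.32 CPM, while the other 2 controls held 0.935 and 0.406 CPM. The CT08 difference did not pass with it (0.79, adjusted p = 0.75) and passed without it (2.96, adjusted p = 0.0103). At CT16 the control livers held 0.602, 0.740 and 0.253 CPM and the MCD livers 2.21, 3.45 and 2.43 CPM. That difference was 2.34 (adjusted p = 0.0477), a call lost when any 1 of 27 of the 36 libraries was left out, with adjusted p up to 0.172. At the other times Uhrf1 had means on MCD of 1.35 ± 0.47 CPM at CT00, 2.70 ± 0.88 CPM at CT04 and 2.29 ± 1.08 CPM at CT20 (SD, n = 3). The control means at these times were 0.565 ± 0.402, 0.925 ± 0.631 and 0.576 ± 0.132 CPM. The highest control at CT00, at 1.03 CPM, just passed the lowest MCD liver, at 1.02 CPM, and at CT04 and CT20 the diets did not overlap, though edgeR called none of the 3 differences (adjusted p = 0.31, 0.149 and 0.0949) and DESeq2 called that at CT20 (1.97, adjusted p = 0.0376). Without control CT08 a those at CT04 (1.61, adjusted p = 0.0431) and CT20 (1.96, adjusted p = 0.0243) passed.

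Dnmt1, the maintenance methyltransferase, rose by less. Control livers held 11.6 to 23.2 CPM (median 15.01) and MCD livers 15.2 to 25.7 CPM (median 17.6), so the groups overlapped broadly. The highest control value was again that of control CT08 a, and without it control livers ended at 18.4 CPM. The difference was 0.30 ± 0.07 on the log2 scale (1.23-fold; edgeR adjusted p = 7.75e-04), higher on MCD at 5 of 6 times, and 0.36 without control CT08 a (adjusted p = 5.09e-07). The call was lost without the libraries numbered 1 (0.26, adjusted p = 0.0659) and among libraries of low mt-Nd6 (0.26, adjusted p = 0.121), and was kept among those of high mt-Nd6 (0.36, adjusted p = 0.0254). At CT12 control livers held 11.6, 11.7 and 13.7 CPM and MCD livers 21.2, 25.7 and 21.6 CPM, a difference of 0.89 ± 0.17 (edgeR adjusted p = 1.26e-03), lost without the libraries numbered 1 (adjusted p = 0.0868) or 2 (adjusted p = 0.153). CT12 was the time of the widest gap for Uhrf1 and for Dnmt1 alike. At CT00, by contrast, the MCD livers held 15.6, 15.6 and 16.6 CPM and the controls 15.9, 16.0 and 18.4 CPM, and the ranges overlapped.

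**Figure D2:**
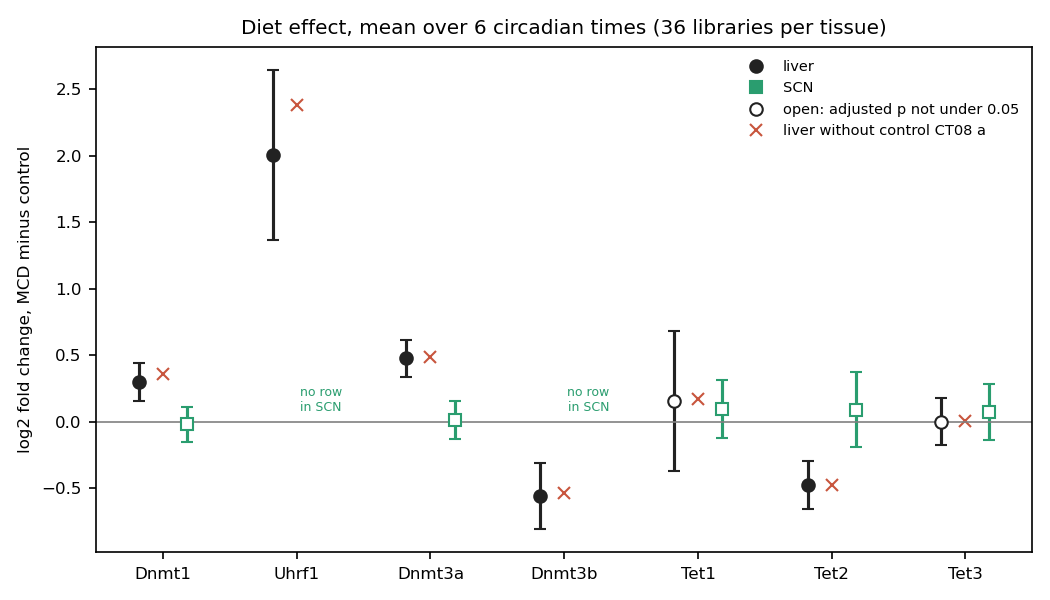
Fitted diet effect (MCD minus control, log2, mean over the 6 times) of each gene in liver (circles) and SCN (squares), with 95% confidence intervals as bars, open symbols where the adjusted p was not under 0.05, and a cross for the liver value without control CT08 a. Uhrf1 sits at 2.01 in liver, Dnmt3b and Tet2 sit below 0 at -0.56 and -0.48, and the 5 SCN values lie between -0.02 and 0.10.

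Genes of cell division rose with these 2. The list of 22 S phase and cell division genes was chosen with earlier results of these data known. Of these, 20 rose on MCD, beside 25.3% of all liver genes, and 0 fell, beside 21.2% (median log2 difference 1.20). Among them were Ccnb1 (2.68, the cyclin of mitotic entry), Ccne1 (1.88, a cyclin of the step into S phase), Cdk1 (1.75, the kinase of mitosis) and Mcm5 (1.71, a subunit of the replicative helicase). Several are low in liver: Ccnb1 averaged 0.369 CPM on control and 1.49 CPM on MCD. Summed over the list, control livers held 63.4 to 210.7 CPM (median 72.7) and MCD livers 91.3 to 318 CPM (median 147). Without control CT08 a the control maximum was 88.4 CPM and the diets did not overlap. Among libraries of low mt-Nd6 12 of the 22 passed upward and among those of high mt-Nd6 15. The share of all genes that passed within each kind is not given here.

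**Figure D3:**
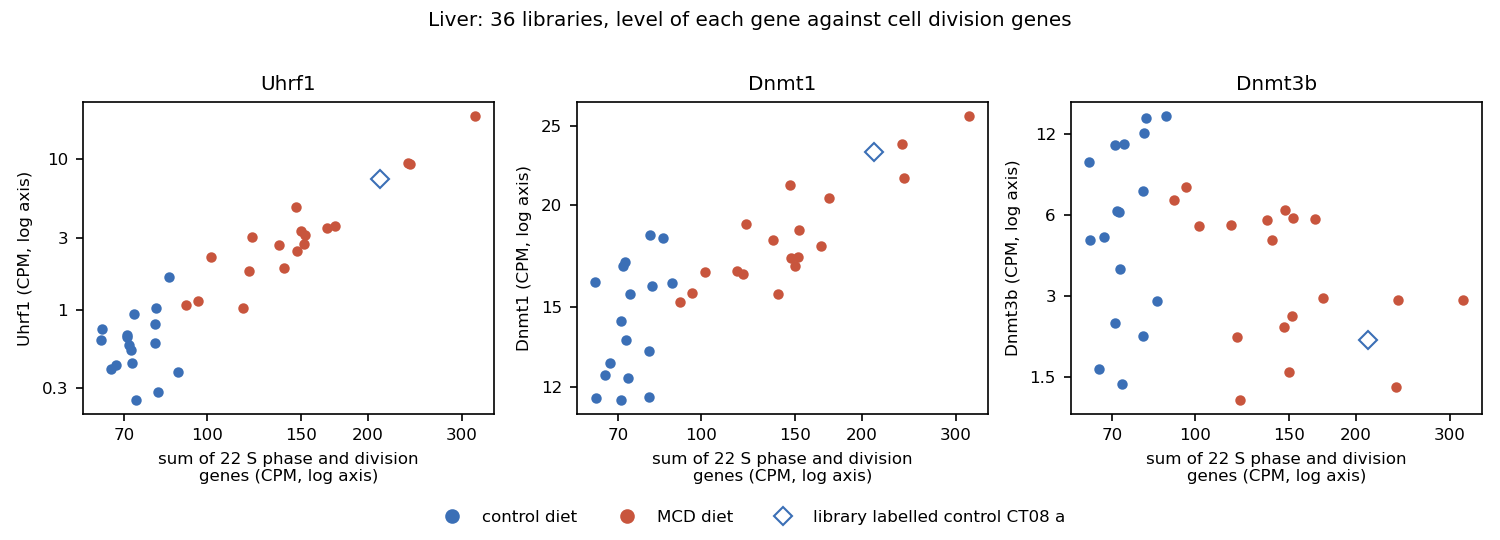
Level of Uhrf1, Dnmt1 and Dnmt3b (CPM, log axis) against the summed level of 22 S phase and cell division genes (CPM, log axis) in each of the 36 liver libraries, control in blue, MCD in red and control CT08 a as an open diamond. Control CT08 a, at 210.7 CPM on the horizontal axis and 7.29 CPM of Uhrf1, lies among the MCD libraries for Uhrf1 and Dnmt1.

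The likeness of Uhrf1 and Dnmt1 to replication genes was also seen among all genes. Over the 36 liver libraries, the 3 genes of at least 1 CPM on average whose log2 CPM tracked that of Uhrf1 best were Mcm6, Mcm5 and Mcm2 (Pearson r of 0.952, 0.944 and 0.928), all subunits of the replicative helicase. For Dnmt1 they were Chaf1a (0.871), a chromatin assembly factor that works behind the replication fork, Mcm4 (0.863) and Aaas (0.847). Without control CT08 a the 6 values ran from 0.836 to 0.949. Dnmt1 and Uhrf1 themselves had an r of 0.79. These values describe libraries that share diet, time and depth and carry no test.

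Of the partners of maintenance and de novo methylation, 7 of 8 tested genes rose with library totals alone, under which the median liver gene rose by 0.27. With TMM scaling 4 of the 8 rose and 0 fell, where 46.6% of all liver genes passed, 25.3% upward and 21.2% downward. With TMM they were Cdca7l (1.19), Lig1 (1.15; DNA ligase of lagging strand synthesis, from 3.10 to 7.0 CPM), Hells (1.04; a chromatin remodeller needed for normal methylation, from 1.33 to 2.87 CPM) and Pcna (0.26; the sliding clamp that holds Dnmt1 at the fork). The list's median was 0.65, and 0.27 without Dnmt3aos, the antisense transcript of Dnmt3a, which had no count in 29 of 36 libraries. Uhrf2, the paralog of Uhrf1, averaged 33.8 CPM on control and 36.2 CPM on MCD and did not pass. Of 10 readers of methylated DNA, 3 rose (Mbd3 by 0.34, Mbd4 by 0.31 and Mbd6 by 0.16) and Mbd1 fell by 0.18 on the log2 scale, with a list median of 0.04. These counts too stand beside 25.3% of all liver genes upward and 21.2% downward. With library totals alone 9 of the 10 rose and 0 fell, so the split rests on the scaling.

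The 2 de novo methyltransferases moved in opposite directions. Dnmt3a rose from 24.6 to 47.8 CPM across control livers (median 29.7) to 29.4 to 67.1 CPM across MCD livers (median 42.6), with overlap between the diets. Its difference was 0.48 ± 0.07 on the log2 scale (1.39-fold; edgeR adjusted p = 1.70e-06), higher on MCD at 6 of 6 times, and it kept its call in every fit that left out 1 library and within both kinds of library. The widest gap was at CT00, where control livers held 27.0, 25.7 and 30.1 CPM and MCD livers 49.5, 41.6 and 49.7 CPM (0.76 ± 0.16, adjusted p = 3.09e-03). At CT08 2 controls, at 47.8 and 47.4 CPM, lay inside the MCD range of 43.6 to 49.9 CPM, and the difference was 0.14. The differences at CT04 (0.56, adjusted p = 0.0182) and CT12 (0.59, adjusted p = 0.0166) also passed. The first was lost without control 1, control 3 or MCD 1 of that time (adjusted p up to 0.124), and the second without control 3 or MCD 2 of its time (up to 0.196). Dnmt3a shares 133 exonic bases with Dnmt3aos on the opposite strand; whether counting used the strand is not given in the sources used here.

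Dnmt3b fell. Control livers held 1.40 to 13.9 CPM (median 5.55) and MCD livers 1.23 to 7.64 CPM (median 3.89); the gene varied widely with time of day on both diets. The difference was -0.56 ± 0.12 on the log2 scale (edgeR adjusted p = 4.37e-04), lower on MCD at 6 of 6 times. Among libraries of high mt-Nd6 the call was lost (-0.59, adjusted p = 0.0594). The fall was widest at CT00, the time of the highest control mean. There control livers held 13.7, 13.9 and 12.1 CPM and MCD livers 4.84, 7.64 and 5.49 CPM, with no overlap (-1.15, edgeR adjusted p = 0.0114, lost without MCD 1 of that time, up to 0.0678). At CT04 control livers held 6.18, 6.16 and 2.86 CPM and MCD livers 2.94, 2.11 and 2.52 CPM (-1.01, adjusted p = 0.0196; lost without control 1, control 2, MCD 2 or MCD 3 of that time, up to 0.101). At CT12 control livers held 2.38, 2.12 and 3.78 CPM and MCD livers 2.30, 2.89 and 2.89 CPM, which overlapped, and the difference was -0.03. At CT16 and CT20 the MCD means of 5.83 ± 0.39 and 6.12 ± 0.58 CPM lay below the control means of 7.74 ± 3.13 and 8.43 ± 3.12 CPM (SD, n = 3), within the spread of the controls.

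Of the TET enzymes, only Tet2 passed in liver. Tet2 ran from 14.7 to 36.3 CPM over control livers (median 20.7) and from 11.1 to 21.7 CPM over MCD livers (median 15.9), and its difference was -0.48 ± 0.09 on the log2 scale (edgeR adjusted p = 6.57e-05), lower on MCD at 6 of 6 times. Scaled to library totals alone it was -0.21 (adjusted p = 0.0766), and among libraries of high mt-Nd6 -0.27 (adjusted p = 0.131). The gap was widest at CT00, with 34.2, 20.2 and 36.3 CPM on control against 11.9, 14.0 and 21.0 CPM on MCD (-0.96, adjusted p = 4.12e-03), where control 2 lay within the MCD range. That call was lost with library totals alone (-0.70, edgeR adjusted p = 0.0521) and without the libraries numbered 1 (-0.68, adjusted p = 0.221). From CT04 to CT20 the control means of Tet2 ran from 17.3 ± 2.51 CPM (CT12) to 23.9 ± 8.36 CPM (CT20) and the MCD means from 13.1 ± 2.02 CPM (CT08) to 17.9 ± 4.20 CPM (CT04). None of these 5 times passed by itself. Tet3 averaged 35.5 ± 7.56 CPM on control and 35.5 ± 3.32 CPM on MCD (SD, n = 18 each). Its difference was 0.00 (95% interval -0.18 to 0.18) with TMM, and 0.26 (adjusted p = 0.0255) with library totals. Tet1 was close to the detection limit, at 0 to 0.671 CPM on control and 0.103 to 0.516 CPM on MCD (0 to 40 counts), and its difference of 0.16 had a 95% interval of -0.37 to 0.69.

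Of the 7 members, 3 passed at CT00, beside 12.6% of all genes, and 2 at CT04, beside 18.2%. None passed at CT08 (0, beside 1.3%), 3 did at CT12 (beside 15.2%), 1 at CT16 (beside 12.5%) and 0 at CT20 (beside 11.3%). At CT00 the 3 were Dnmt3a, Dnmt3b and Tet2, and at CT12 they were Uhrf1, Dnmt1 and Dnmt3a. By edgeR 1 member at CT08 and 3 at CT20 had an unadjusted p under 0.05. At CT08 DESeq2 and limma-voom also called 0, and at CT20 DESeq2 called 1 and limma-voom 0. Without control CT08 a, Uhrf1 and Dnmt1 both passed at CT08 (2.96 and 0.69). Without the libraries numbered 1, edgeR called 0 of the 7 at each of the 6 times.

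Regulators of TET activity moved in both directions, as did liver genes as a whole. Of 13 tested genes 4 rose and 5 fell, beside 25.3% and 21.2% of all liver genes, with a median of -0.06. With library totals alone 6 rose and 3 fell. The widest change was that of Gadd45b, a stress-induced adaptor linked to active demethylation, from 0.706 to 7.88 CPM (3.48 on the log2 scale, adjusted p = 1.09e-10). Idh2, the mitochondrial enzyme that makes alpha-ketoglutarate, rose from 84.1 to 148.9 CPM (0.82), and Gadd45a from 7.34 to 12.9 CPM (0.80). Of 11 tested genes of base excision repair, 3 rose and 2 fell, close to the 25.3% and 21.2% of all liver genes, so nothing particular to this list follows. The list median was 0.00, and with library totals alone 8 rose and 0 fell. Neil3, a glycosylase of dividing cells, rose by 1.60 from 0.196 to 0.494 CPM, Tdg by 0.30 and Lig3 by 0.25, and Xrcc1 fell by 0.20 on the log2 scale.

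Of 9 tested genes of methyl donor supply, 4 fell, beside 21.2% of all liver genes, and 1 rose, beside 25.3%. The list median was -0.22 (2 fell and 4 rose with library totals alone). Mat2a, the S-adenosylmethionine synthetase subunit that liver holds at a low level, rose from 71.0 to 225 CPM (1.65 on the log2 scale, adjusted p = 5.23e-15). Gnmt, which uses up S-adenosylmethionine on glycine, fell from 1172 to 568 CPM (-1.07, adjusted p = 4.45e-07). Ahcy, which clears the S-adenosylhomocysteine that inhibits methyltransferases, fell from 1168 to 756 CPM (-0.60), and Ahcyl2 from 23.2 to 17.6 CPM (-0.36).

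Rhythm was read as the daily component of the 6 time means, given as the fitted range from trough to peak on the log2 scale and the time of the peak. On the control diet 4 of the 7 genes were rhythmic in liver by edgeR, beside 17.8% of all genes: Dnmt3b, Dnmt3a, Tet2 and Dnmt1. Which genes were called depended on the method: DESeq2 added Uhrf1 and Tet1, limma-voom added Tet1 and lost Dnmt1 (adjusted p = 0.0648), and library totals alone added Tet1 and lost Tet2 (adjusted p = 0.0598) and Dnmt1 (adjusted p = 0.091). On MCD edgeR called 3, beside 28.2%: Dnmt3b, Dnmt3a and Uhrf1. DESeq2 added Dnmt1 there (0.42, adjusted p = 0.0448). Dnmt3b had a range of 2.68 on control, the widest of the 7 there (6.39-fold; edgeR adjusted p = 1.70e-07), and of 2.22 on MCD (4.65-fold; adjusted p = 1.70e-06), with peaks at 21.4 h and 19.9 h. Mean levels on control went from 13.2 ± 1.03 CPM at CT00 to 1.69 ± 0.34 CPM at CT08 (SD, n = 3) and back to 8.43 ± 3.12 CPM at CT20. On MCD they went from 5.99 ± 1.46 to 1.38 ± 0.16 and back to 6.12 ± 0.58 CPM. At the CT08 trough the diets overlapped, with ranges of 1.40 to 2.06 CPM on control and 1.23 to 1.55 CPM on MCD.

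Dnmt3a peaked in the subjective day, at 6.06 h on control (range 0.74, edgeR adjusted p = 1.06e-03) and 4.81 h on MCD (range 0.70, adjusted p = 1.01e-03). Without the libraries numbered 1 both calls were lost (0.71, adjusted p = 0.11 on control; 0.62, adjusted p = 0.109 on MCD). Its mean ran from 24.9 ± 0.35 CPM at CT16 to 41.8 ± 9.99 CPM at CT08 on control, and from 34.3 ± 6.20 CPM at CT16 to 57.6 ± 8.33 CPM at CT04 on MCD (SD, n = 3). The 2 de novo enzymes therefore peaked at different times of day on both diets, and over the 36 libraries their log2 levels had an r of -0.525. The genes most like Dnmt3b were Rfxank (0.914), Lgalsl (0.909) and Trim2 (0.909), and those most like Dnmt3a were Spg21 (0.906), Krt18 (0.905) and Mafk (0.904). Tet2 had r values of at most 0.772 (Top1mt, then Nkiras2 and Ptprj) and Tet3 of at most 0.658 (Odf2, then Prr12 and Mark4).

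**Figure D4:**
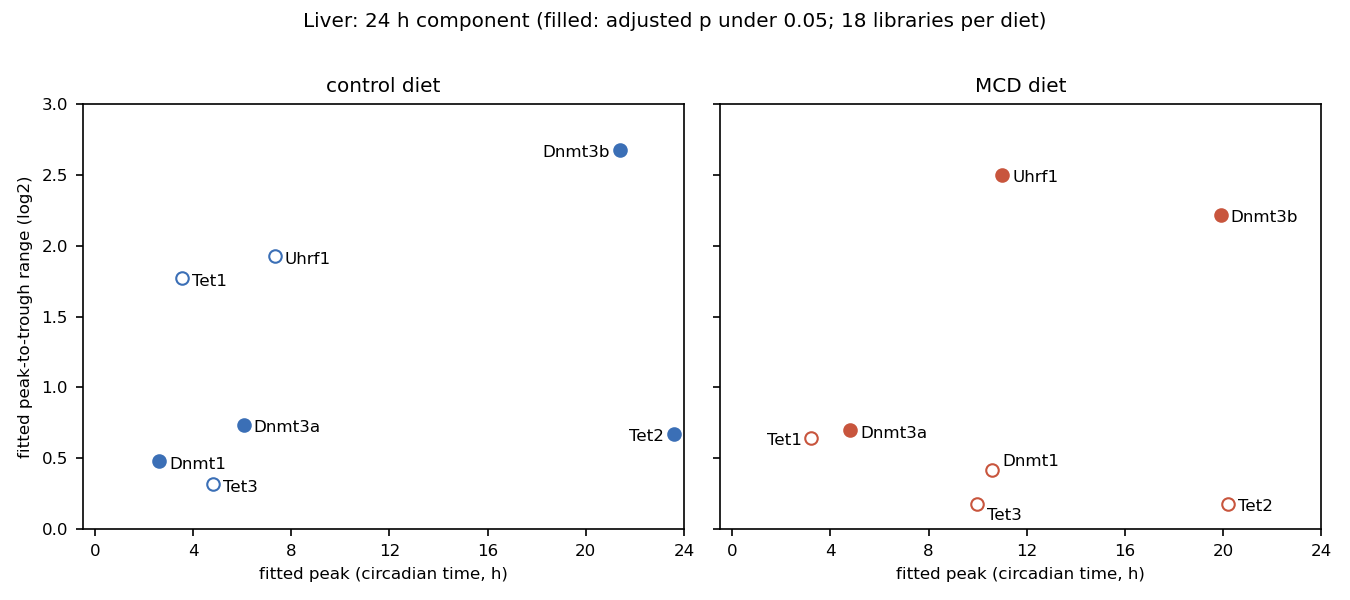
Fitted range from trough to peak (log2, vertical) against the fitted peak time (circadian time in hours, horizontal) of each gene in liver, on the control diet (left) and on MCD (right), with filled points where the adjusted p was under 0.05 and 18 libraries per diet. Dnmt3b has a range of 2.68 on control and 2.22 on MCD late in the cycle, and Dnmt1 lies at 2.62 h on control and 10.6 h on MCD.

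Tet2 on control had a range of 0.67 with a peak at 23.6 h (edgeR adjusted p = 0.0218), a call lost without control CT00 1, control CT00 3 or control CT12 2 (up to 0.0937), and without the libraries of any 1 replicate number (adjusted p 0.0681 to 0.133); on MCD its range was 0.18 (adjusted p = 0.725), and the difference in rhythm between diets was not significant (adjusted p = 0.321). Uhrf1 on MCD had a range of 2.50 with a peak at 11.0 h (adjusted p = 8.34e-03). That call was kept in all 36 fits that left out 1 library and lost in each of the 3 that left out all libraries of 1 replicate number (adjusted p 0.055 to 0.269). On control its range was 1.93 (edgeR adjusted p = 0.0808; 1.92 and 0.0297 with DESeq2), and 0.48 without control CT08 a (adjusted p = 0.812). By edgeR Tet1, at 1.77 on control (adjusted p = 0.0516), and Tet3 did not pass on either diet. Tet1 on control did pass with DESeq2 (1.75, adjusted p = 0.0114), limma-voom (1.97, adjusted p = 0.0347) and library totals alone (1.87, adjusted p = 0.0478), and Tet3 without the libraries numbered 3 (0.63, adjusted p = 0.00618).

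Dnmt1 was the one member whose rhythm differed between the diets, beside 4.87% of all genes. On control its range was 0.48 with a peak at 2.62 h (edgeR adjusted p = 0.043, a call lost without any 1 of 21 of the 36 libraries, up to 0.114), and on MCD 0.42 with a peak at 10.6 h (adjusted p = 0.0628). Control means were highest at CT04 (17.4 ± 0.74 CPM) and lowest at CT12 (12.3 ± 1.19 CPM), and MCD means were lowest at CT00 (15.9 ± 0.59 CPM) and highest at CT12 (22.8 ± 2.47 CPM; SD, n = 3). The difference in rhythm was 0.77 (adjusted p = 0.0455), which lies next to the threshold: it was lost when any 1 of 28 of the 36 libraries was left out (adjusted p 0.00102 to 0.0873 over the 36 fits). Limma-voom gave an adjusted p of 0.0506, library totals alone 0.219 and DESeq2 0.0159. Without control CT08 a the adjusted p was 0.00102, and the control rhythm had a range of 0.51, a peak at 0.55 h and an adjusted p of 1.12e-03. The other 6 members did not pass, with Dnmt3b at 1.03 (adjusted p = 0.154) and Uhrf1 at 2.09 (adjusted p = 0.309).

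Among partner genes, 0 of 8 tested were rhythmic in liver on control, beside 17.8% of all genes, and 6 of 8 on MCD, beside 28.2%, among them Hells (range 1.55, peak 10.9 h), Cdca7 (1.38, 8.41 h), Lig1 (1.17, 10.7 h) and Uhrf2 (0.55, 17.1 h). By edgeR the difference in rhythm passed for 0 of the 8, beside 4.87% of all genes, with 2 at an unadjusted p under 0.05, while DESeq2 called 2, limma-voom 0 and edgeR without control CT08 a 2. The control count of 0 had 1 gene at an unadjusted p under 0.05 and became 1 with DESeq2 and 0 with limma-voom. Of the S phase list 8 of 22 were rhythmic on control and 11 of 22 on MCD. Mcm5 was rhythmic on MCD with a peak at 11.7 h, close to the 11.0 h of Uhrf1. Rhythm differed between diets for 3 of 11 base excision genes (Tdg, Xrcc1 and Parp1), 2 of 13 TET regulators (Gadd45a and Oga) and 1 of 9 methyl donor genes, Mat2a (0.88, adjusted p = 0.0236).

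Sex moved 1 of the 7 in liver, beside 9.44% of all genes. Tet2 was higher in the libraries labelled female, at 26.8 ± 6.68 CPM on control and 17.6 ± 2.81 CPM on MCD (SD, n = 6 each). In those labelled male the means were 20.7 ± 5.43 CPM and 15.3 ± 3.01 CPM (n = 12 each). The difference was 0.29 ± 0.09 (edgeR adjusted p = 0.0458) and was lost without any 1 of 25 of the 36 libraries and with library totals alone (0.33, adjusted p = 0.0621). A difference in diet effect by sex was called for 0 of 7 members, beside 1.77% of genes (edgeR; 0 of 7 also at an unadjusted p under 0.05, and 0 by DESeq2 and by limma-voom).

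In SCN none of the 5 genes passed for diet. Dnmt1 held 47.2 ± 5.91 CPM on control and 46.8 ± 7.74 CPM on MCD (SD, n = 18 each), within 36.5 to 61.9 and 28.4 to 62.4 CPM. For Dnmt3a the means were 52.0 ± 7.84 and 52.4 ± 7.35 CPM, Tet1 12.6 ± 2.70 and 13.4 ± 2.97 CPM, Tet2 20.4 ± 5.89 and 21.9 ± 6.20 CPM, and Tet3 19.0 ± 4.09 and 20.1 ± 4.51 CPM. The ranges of the diets overlapped for all 5. The diet effect ran from -0.02 for Dnmt1 (95% interval -0.15 to 0.11) and 0.02 for Dnmt3a (-0.13 to 0.16) to 0.10 for Tet1 (-0.12 to 0.32). For Tet2 it was 0.09 (-0.19 to 0.37) and for Tet3 0.08 (-0.14 to 0.29). Over the 12 groups of diet and time the Dnmt1 means ran from 39.5 ± 11.0 CPM (MCD at CT04) to 51.2 ± 10.7 CPM (MCD at CT12; SD, n = 3) and the Dnmt3a means from 45.0 ± 5.26 CPM (control at CT00) to 57.9 ± 7.72 CPM (MCD at CT12). Among the TET genes, MCD at CT12 had the highest group mean of Tet2 (29.3 ± 4.72 CPM) and of Tet3 (25.4 ± 1.81 CPM), and control at CT16 that of Tet1 (15.4 ± 3.03 CPM). The lowest were control at CT00 for Tet2 (14.8 ± 3.83 CPM) and Tet3 (17.0 ± 0.95 CPM) and control at CT20 for Tet1 (10.9 ± 2.10 CPM).

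**Figure D5:**
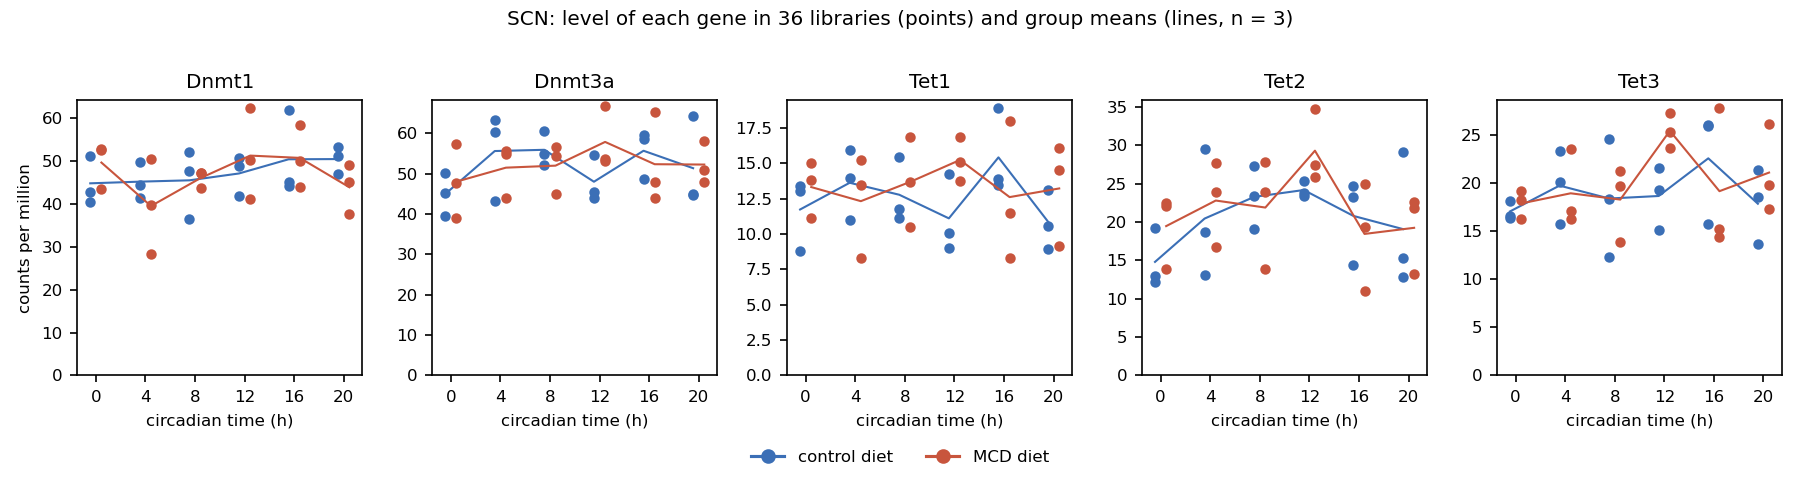
Level in CPM (linear axis from 0) of the 5 members in every SCN library (points) by circadian time in hours, with lines through the group means of 3 libraries, control in blue and MCD in red. The ranges of the diets overlap for each gene, with Dnmt1 between 28.4 and 62.4 CPM over all 36 libraries.

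No SCN comparison called a member: diet (0 of 5, beside 0.0635% of all genes), rhythm on control (0 of 5, beside 15.1%), rhythm on MCD (0 of 5, beside 16.1%) or the difference in rhythm (0 of 5, beside 0.0127%). At single times 0 of 5 passed for diet, beside 0.00635% of genes at CT00, CT16 and CT20, 0.0444% at CT04 and 0% at CT08 and CT12. By edgeR 0 of the 5 also had an unadjusted p under 0.05 in any of these, and DESeq2 and limma-voom called 0. The widest fitted rhythm was that of Tet2, with a range of 0.59 on control (adjusted p = 0.285) and 0.46 on MCD (adjusted p = 0.465). By sex, 0 of 5 passed, beside 9.89% of genes, and 0 of 5 for a difference in diet effect by sex, beside 0%; Dnmt1 was nearest, at -0.18 in females (unadjusted p = 0.0145, adjusted p = 0.095), and passed without control CT08 b or MCD CT16 3. Genes around the members were rhythmic in SCN: 6 of 13 TET regulators on control and 7 of 13 on MCD. On control these included Gadd45b (range 1.48, peak 18.7 h), Gadd45g (0.86, 10.4 h), Gadd45a (0.71, 16.8 h) and Idh1 (0.62, 20.7 h). Mat2a was the one gene of the 6 lists that passed for diet in SCN (0.31, from 142 to 191 CPM, adjusted p = 0.015), and its rhythm differed between the diets (1.83, adjusted p = 2.55e-07), with a range of 1.58 on MCD.

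Dnmt3b and Uhrf1, absent from the SCN gene table, could be read from the deposited counts per exon bin, a stretch of exon shared by the same transcripts. Summed over the bins of a gene and given per M bin counts, Dnmt3b was at 0.518 ± 0.345 (0 to 62 counts) and Uhrf1 at 0.774 ± 0.617 (0 to 93 counts) in SCN (SD, n = 36), against 4.53 ± 2.76 and 3.05 ± 4.50 in liver (n = 34). In SCN the diets overlapped for both, with Uhrf1 at 0.882 ± 0.741 on control and 0.666 ± 0.459 on MCD (n = 18 each). Bins of 5 members passed the filter in each tissue, and exon usage by diet was called for 0 of 5 in liver (Dnmt1, Dnmt3a, Dnmt3b, Tet2 and Tet3; beside 3.48% of genes) and 0 of 5 in SCN (beside 0.0387%) by edgeR's Simes test, with 0 in either tissue at an unadjusted p under 0.05. The lowest was that of liver Dnmt3a, at an unadjusted p of 0.209. In edgeR's gene-level F test of exon usage it had an unadjusted p of 0.00301 and an adjusted p of 0.0522.

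In a model of all 72 libraries the diet effect differed between liver and SCN for 3 of the 5 shared members, beside 34.7% of all genes. The difference was 0.31 ± 0.10 for Dnmt1 (edgeR adjusted p = 0.0101), 0.46 ± 0.10 for Dnmt3a (adjusted p = 2.91e-04) and -0.57 ± 0.17 for Tet2 (adjusted p = 6.58e-03), each given as liver minus SCN. With library totals alone it was 0.57 for Dnmt1 and 0.73 for Dnmt3a, both still called, and -0.30 for Tet2, which was not (adjusted p = 0.151). For Tet1 it was 0.04 (adjusted p = 0.924) and for Tet3 -0.08 (adjusted p = 0.714). With the libraries of 1 replicate number left out at a time, 1 to 2 of the 5 passed: Dnmt1 was lost in each of these fits (adjusted p 0.0653 to 0.123) and Tet2 without the libraries numbered 2 (adjusted p = 0.138). The model does not know which liver and SCN libraries came from the same mouse.

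Levels also differed between the tissues on control, with all 5 past the test beside 90.4% of all genes. Tet1 was far higher in SCN (4.85 ± 0.21 on the log2 scale) and Dnmt1 higher (0.77 ± 0.08), while Tet3 was lower (-1.92 ± 0.11). With library totals alone Dnmt1 was at 1.89 and Tet3 at -0.79. Tet2 (-0.99) and Dnmt3a (-0.26) were lower in SCN with TMM, but with library totals alone the values were 0.14 (edgeR adjusted p = 0.338) and 0.87 (adjusted p = 5.22e-12), so their direction rests on the scaling. Per kilobase of merged exons, which allows genes to be compared, control liver held Tet3 at 2.13 ± 0.45 CPM per kb, Dnmt1 at 2.04 ± 0.41, Dnmt3a at 1.89 ± 0.47, Tet2 at 1.35 ± 0.38, Dnmt3b at 1.27 ± 0.85, Uhrf1 at 0.239 ± 0.376 and Tet1 at 0.0174 ± 0.0106 (SD, n = 18). The first 3 did not differ beyond their spread, nor did Tet2 and Dnmt3b. On MCD Dnmt3a (2.62 ± 0.60) and Dnmt1 (2.51 ± 0.40) had the highest means, followed by Tet3 (2.12 ± 0.20, within the spread of both), and Uhrf1 (0.988 ± 1.03), Tet2 (0.953 ± 0.182) and Dnmt3b (0.801 ± 0.407) lay within each other's spread, with medians of 0.671, 0.942 and 0.762. In control SCN the order was Dnmt1 at 6.40 ± 0.80 CPM per kb, Dnmt3a at 3.12 ± 0.47, Tet2 at 1.21 ± 0.35, Tet3 at 1.14 ± 0.25 and Tet1 at 0.814 ± 0.175. Tet2 and Tet3 lay within each other's spread. Tet1 had the lowest mean, and its range (0.568 to 1.22) overlapped those of Tet2 (0.725 to 1.75) and Tet3 (0.735 to 1.56).

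Over the 36 SCN libraries Dnmt3a and Tet3 had an r of 0.731 and Tet1 and Tet3 of 0.725, the highest among the 5 members, and the lowest was 0.292 for Dnmt1 and Tet2. Over the 36 liver libraries the same 5 genes had values from -0.331 (Dnmt3a and Tet2) to 0.545 (Dnmt1 and Dnmt3a). Libraries share scaling and differ in depth, which enter these values. The genes most like them in SCN were Ap3d1 for Dnmt1 (0.877), Mga for Dnmt3a (0.864), Etnk1 for Tet1 (0.824), 4932438A13Rik for Tet2 (0.882) and Wnk1 for Tet3 (0.866).

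By GENCODE M21 (build GRCm38) the members lie at 9:20907209-20959888 (Dnmt1, minus strand), 12:3806007-3914443 (Dnmt3a, plus), 2:153649450-153687730 (Dnmt3b, plus), 17:56303321-56323486 (Uhrf1, plus), 10:62804570-62908996 (Tet1, minus), 3:133463679-133545139 (Tet2, minus) and 6:83362373-83459084 (Tet3, minus). Besides Dnmt3a, Tet2 shares 43 exonic bases with Gm42567 on the opposite strand.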

How the data were processed

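RNA-seq libraries of mouse liver and SCN were analysed from the counts per gene that the authors deposited, whole numbers that are not normalized as the values show, with 1 table per tissue, and from their counts per exon bin, with 1 file per library. The submitters' processing notes name Trimmomatic, HISAT2, StringTie, DESeq2 and GRCm39. Tool versions and strand settings were not stated there. The gene models used for lengths and positions were matched by gene ID on GRCm38. Samples were grouped by the labels' tissue, diet, time and sex. Replicates are separate mice per the series' design, and the lowest chi-square per degree of freedom between replicates was 29.5 in liver and 24.1 in SCN.

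Per tissue, 1 model held 12 groups and sex (23 residual degrees of freedom). It was fitted by quasi-likelihood in edgeR (version 4.0.16 under R version 4.3.3), using TMM, a minimum count of 10 and Benjamini-Hochberg adjustment over all genes. Rhythm used 24 h cosine and sine contrasts. On simulated data of 19138 liver genes, 200 of 200 changed 2-fold were recovered for diet and 137 of 200 for rhythm on control, with 13 and 3 false calls. On 15759 SCN genes, 200 and 146 of 200 were recovered, with 15 and 12 false calls. The simulation gave every gene the same relative spread, and genes of few counts were not among those changed. It held no library like control CT08 a and no mt-Nd6 kinds, and recovery of changes under 2-fold was not measured. Alternatives were scaling to library totals, DESeq2 1.42.0, limma 3.58.1 (voom), no filter, leaving out libraries, a replicate block, and terms or splits for the kind of library, the splits being chosen after seeing the data. Same-numbered libraries of the 2 diets correlated at -0.21 to 0.29 in liver and -0.17 to 0.25 in SCN. In each tissue the library of the same number was the best match in 7 of 16. Pairing by number was not assumed, though so few weak correlations cannot exclude it. Exon usage was tested with edgeR's diffSpliceDGE. The bin files of 2 liver libraries end early and were left out. The members and lists were chosen with earlier results of these data known. Named were all members, at most 4 called genes per list and comparison by size of change, Mat2a, and the 3 genes most alike by Pearson r. 1 gene that this rule would name is not reported here.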

Additional observations from a re-analysis of the deposited data

Results flagged for a closer look

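The daily rhythm of Dnmt1 in liver differed between the diets by a test of the difference itself (0.771 on the log2 scale, edgeR adjusted p = 0.0455), with a peak at 2.62 h on control and 10.6 h on MCD. That call was lost when any 1 of 28 of the 36 libraries was left out, with limma-voom (adjusted p = 0.0506), with library totals alone (adjusted p = 0.219) and without a filter on low counts (adjusted p = 0.0549). It was also lost without the libraries of any 1 replicate number (adjusted p 0.153 to 0.525), and was kept with DESeq2 (adjusted p = 0.0159). The diet effect differed between liver and SCN for Dnmt1 (0.3149 on the log2 scale, liver minus SCN), Dnmt3a (0.4597) and Tet2 (-0.5708), in each case by a test of the difference in edgeR. The call for Dnmt1 was lost in each fit that left out the libraries of 1 replicate number (adjusted p 0.0653 to 0.123). That for Tet2 was lost with library totals alone (-0.30, adjusted p = 0.151) and without the libraries numbered 2 (adjusted p = 0.138). That for Dnmt3a was kept under each of these alternatives (adjusted p up to 0.0163).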

How the results depend on the processing

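Depth limits Tet1 in liver (0 to 40 counts) and Uhrf1 in control livers (from 15 counts). The 5 liver diet calls kept their direction under each alternative, and 3 were called within libraries of high mt-Nd6. Counts of members called moved by more than 1.5 times at single times in liver. At CT04 (main 2) the count went to 1 with library totals and 1 with limma-voom. At CT08 (main 0) it went to 2 without control CT08 a. At CT16 (main 1) it went to 2 with library totals and 2 without control CT08 a. There it went to 0 with limma-voom, 0 without a filter on low counts and 0 with the mt-Nd6 kind in the model. At CT20 (main 0) it went to 1 with DESeq2 and 1 without control CT08 a. Smaller moves included those at CT00 from 3 to 2 with library totals and at CT04 from 2 to 3 without control CT08 a. The liver rhythm difference (main 1) went to 0 with library totals, limma-voom and no filter, and the liver sex effect (main 1) to 0 with library totals, no filter and the kind term. Leaving out 1 library or 1 replicate number gave 4 to 5 members for the liver diet effect, 0 to 3 at CT00, CT04 and CT12, 0 to 2 at CT08 and CT16, 0 to 1 at CT20, 1 to 6 for rhythm on control, 1 to 4 for rhythm on MCD, 0 to 1 for the rhythm difference and for sex in either tissue, 1 to 2 for the tissue difference in diet effect and 4 to 5 for that in level. The replicate block was run without the unnumbered CT08 libraries, although the numbers are not known to pair the samples. It left 1 control liver at CT08, so no calls of that fit are given. Tet3 was at 1.08 at CT08 (main -0.02) and 0.19 over all times, and Uhrf1 at 2.00 at CT20. In the control liver that was left at CT08, Tet3 was at 17.1 CPM, against 40.2 and 52.3 CPM in a and b. With library totals the level of SCN minus liver reversed for Tet2 (0.14) and Dnmt3a (0.87). The cause of these moves was not tested.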
